A study of Mus musculus with 8 samples.

Results

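The genes described here encode the mouse major histocompatibility complex class II molecules and the proteins that serve them: H2-Ea, H2-Aa, H2-Ab1, H2-Eb1, H2-DMa, Cd74 and Ciita. They were chosen by gene symbol, 7 of the 19938 genes that had a probe set with a single symbol on the array, and each had 1 such probe set. H2-Ea was singled out because its difference between genotypes in muscle was already known, so its muscle values are given as a description with no test.

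Total RNA was measured on Affymetrix Mouse Gene 1.0 ST arrays in SCA17 knock-in (KI) mice and wild-type (WT) mice, all 3 months old. Spinocerebellar ataxia 17 is an inherited disease caused by a lengthened glutamine repeat in the TATA-box binding protein, the product of Tbp. The groups were KI tibialis anterior muscle, WT tibialis anterior muscle, KI cerebellum and WT cerebellum, with 2 arrays each, and every WT array served as the control of its tissue. The submitters name 3 mice per genotype, but nothing says that the arrays of a group came from separate mice, so p-values measure only the spread between these arrays. The sources used here do not give strain, H2 haplotype, zygosity, sex or repeat length. Each sample is whole tissue, in which fewer cells of a type and less RNA per cell cannot be told apart.

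A class II molecule is a pair of chains, alpha and beta, that carries peptides from endosomes to the surface of antigen-presenting cells such as dendritic cells, macrophages and B cells, where CD4+ T cells read them. H2-Aa and H2-Ab1 encode the alpha and beta chains of I-A, and H2-Ea and H2-Eb1 those of I-E. Cd74, the invariant chain, fills the groove until it is digested, and the H2-DM heterodimer, whose alpha chain is H2-DMa, exchanges its last fragment for peptide. Ciita is the coactivator that switches the whole group on, working through the RFX, CREB and NF-Y proteins bound at class II promoters, and interferon gamma is its best known inducer. Resting muscle fibres and neurons are not known for class II expression, and in these tissues it is mostly a feature of resident macrophages, dendritic cells and microglia. In mouse strains with the b haplotype of H2, H2-Ea is known to be silent because its promoter carries a deletion, and the RefSeq table used here, built on strain C57BL/6J, lists H2-Ea as a transcribed pseudogene and the other genes as protein coding. Whether the KI and WT mice differed in H2 haplotype was not tested.

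The promoters are shown because class II genes are known to share a regulatory module there, the X box bound by RFX followed by the Y box bound by NF-Y. In the table of RefSeq promoters used here (GRCm38.p6), 3 of the 7 genes were matched: H2-Aa, H2-Eb1 and H2-DMa. The 150 bases before the start site are printed 5′ to 3′ on the gene's strand, at chr17:34287824-34287973 (minus strand) for H2-Aa, chr17:34305717-34305866 (plus strand) for H2-Eb1 and chr17:34122682-34122831 (plus strand) for the first of the H2-DMa windows. Capitals mark GNAAC, as found in X boxes, and GATTGG, the Y box core.
H2-Aa: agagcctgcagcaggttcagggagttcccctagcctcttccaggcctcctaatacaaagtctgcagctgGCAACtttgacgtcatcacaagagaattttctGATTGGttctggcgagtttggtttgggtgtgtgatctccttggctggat
H2-Eb1: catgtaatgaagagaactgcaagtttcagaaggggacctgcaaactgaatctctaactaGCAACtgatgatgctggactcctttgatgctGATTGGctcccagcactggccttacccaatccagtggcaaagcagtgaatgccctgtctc
H2-DMa: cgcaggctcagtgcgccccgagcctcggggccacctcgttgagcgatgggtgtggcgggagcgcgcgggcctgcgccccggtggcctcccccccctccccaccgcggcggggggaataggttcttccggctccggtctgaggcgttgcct

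GNAAC followed by GATTGG after 20 to 30 bases was searched on the gene's strand of the 250 bases before the start site. It was found in the H2-Aa and H2-Eb1 windows and in neither H2-DMa window. The gap was 27 bases in H2-Aa and 26 bases in H2-Eb1, and GATTGG ended 43 and 54 bases before the start site. Of 32851 promoter windows of the same length in the table, 0.551% held that order and spacing on either strand. That search was wider than the one of the class II genes, made on the gene's strand alone. GNAAC was held anywhere on either strand by 79.6% of windows and GATTGG by 14.6%. The search rule was set after these sequences had been read, so the match is a description. Among the related class II genes it was also found on the gene's strand for H2-Oa, H2-Ob, H2-DMb1 and H2-Eb2, and not for H2-DMb2.

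Array medians lay between 5.40 and 5.51 on the deposited log2 scale, and arrays of a group correlated at 0.977 to 0.989 over all probe sets. All 8 listed markers of skeletal muscle were higher in muscle and all 8 listed markers of cerebellum were lower in muscle, by adjusted p and at least 2-fold. By the same rule 26% of 14708 genes were called in either direction and 11% higher in muscle. Levels below are log2 array values, differences are log2 differences, and a fold is computed from that log2 difference. A gene was tested in a tissue where at least 2 of its 4 arrays reached the 40th percentile of all probe sets of the array, which was 4.96 to 5.05. It was called at a limma adjusted p under 0.05, with Benjamini-Hochberg adjustment over all genes tested in that comparison. Of the tissue markers, Mylpf passed the filter only through muscle, and Calb1, Gabra6 and Neurod1 only through cerebellum. Each SE, interval and p comes from a fit of all 8 arrays and pools the spread of both tissues. For H2-Aa, H2-Ab1, H2-Eb1 and Cd74 the SDs were larger in both muscle groups than in both cerebellum groups. Their pooled SEs thus understate the spread in muscle and overstate it in cerebellum.

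H2-Ea was high on the KI muscle arrays alone. Its level was 6.38 and 6.91 in KI muscle (replicates 94 and 97), against 4.46 and 4.45 in WT muscle (replicates 95 and 96). The genotypes did not overlap, and the WT arrays were below the 40th percentile, so that H2-Ea passed the filter only through the KI arrays. The KI mean was 6.65 ± 0.375 and the WT mean 4.46 ± 0.0124 (SD, n = 2 each), a difference of 2.19 ± 0.185 (SE), or 4.57-fold. Of the 13933 genes tested in muscle, 3, H2-Ea included, were higher in KI by that much or more. This rank is a description and lends no support, since H2-Ea was singled out with that difference known.

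In cerebellum H2-Ea read 4.48 and 4.90 in KI mice, against 3.93 and 3.95 in WT mice. All 4 arrays were below the 40th percentile, and the gene was not tested there. The genotypes again did not overlap, with a difference of 0.75 or 1.68-fold. With no filter on low values the limma adjusted p of this cerebellum difference was 0.635. The groups ran in the order KI muscle, KI cerebellum, WT muscle and WT cerebellum, and KI cerebellum and WT muscle lay close together. The muscle difference exceeded the cerebellum difference by 1.44 ± 0.262 (SE), given as a description since it contains the muscle values that singled the gene out.

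**Figure D1:**
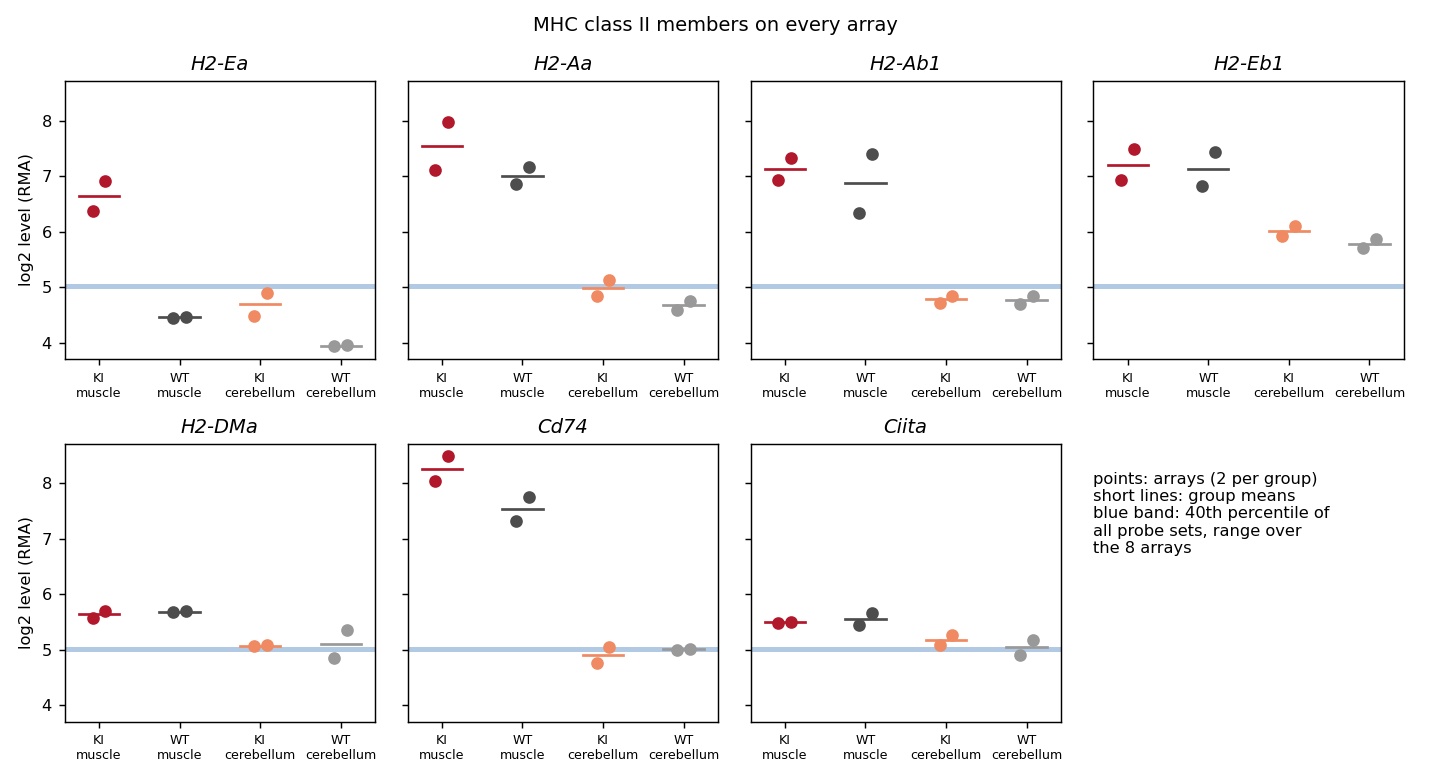
Log2 level of each gene on every array, by group (KI muscle, WT muscle, KI cerebellum, WT cerebellum; points are arrays, 2 per group, short lines are group means, and the band is the 40th percentile of the probe sets, 4.96 to 5.05). H2-Ea stands at 6.38 and 6.91 in KI muscle and under the band in the other 3 groups, while H2-Aa, H2-Ab1, H2-Eb1 and Cd74 are above the band in muscle of both genotypes.

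The I-A chains were present in muscle of both genotypes. The alpha chain H2-Aa read 7.11 and 7.99 in KI muscle, against 7.16 and 6.86 in WT muscle. These groups overlapped, because KI replicate 94 lay below WT replicate 95. The difference was 0.54 ± 0.247 (SE; 95% interval -0.0138 to 1.10), with a limma adjusted p of 0.258. The size depends on the KI arrays: without KI replicate 97 the difference was 0.105, and without KI replicate 94 it was 0.978 (adjusted p = 0.0507).

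The beta chain H2-Ab1 read 6.94 and 7.33 in KI muscle, against 7.40 and 6.34 in WT muscle. Its WT arrays lay on either side of the KI arrays. The difference of 0.26 ± 0.282 (SE; 95% interval -0.376 to 0.894) did not pass the test (limma adjusted p = 0.653).

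H2-Eb1, the beta chain that would pair with H2-Ea, read 6.93 and 7.50 in KI muscle, against 7.44 and 6.83 in WT muscle. The groups overlapped, and the difference was 0.07 ± 0.224 (SE; 95% interval -0.43 to 0.578; limma adjusted p = 0.894).

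Cd74, the invariant chain, was the member other than H2-Ea with the widest gap between genotypes in muscle. It read 8.04 and 8.49 in KI muscle, against 7.76 and 7.33 in WT muscle. The lower KI array lay above the higher WT array. The difference was 0.72 ± 0.186 (SE; 95% interval 0.302 to 1.14), or 1.65-fold, with an unadjusted limma p of 0.00356 and an adjusted p of 0.0716. Cd74 was thus not called. The call was made with trended and robust variances (limma adjusted p = 0.0471), while with the muscle arrays alone the limma adjusted p was 0.146. The SD of Cd74 was 0.318 and 0.303 in KI and WT muscle, against 0.201 and 0.0112 in KI and WT cerebellum.

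H2-DMa, the peptide exchange factor, read 5.58 and 5.70 in KI muscle, against 5.68 and 5.71 in WT muscle. Ciita read 5.49 and 5.51 in KI muscle, against 5.66 and 5.45 in WT muscle. Both genes overlapped between genotypes, with differences of -0.05 ± 0.155 for H2-DMa (95% interval -0.402 to 0.297; limma adjusted p = 0.891) and -0.06 ± 0.132 for Ciita (95% interval -0.354 to 0.242; limma adjusted p = 0.859).

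Across the 6 genes other than H2-Ea, 0 were called between KI and WT muscle by limma and 1, Cd74, had an unadjusted p under 0.05. Over all 13933 genes tested in muscle, 3.55% were called, 2.66% higher and 0.89% lower in KI, and 2822 had an unadjusted limma p under 0.05. The median difference of the 6 genes was 0.167, against 0.026 over all genes. Arrays of the genotypes did not overlap for 1 of the 6 genes, and for 50.2% of all genes tested.

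Replicates of a genotype differed for several class II genes at once. H2-Aa, H2-Ab1, H2-Eb1 and Cd74 were all higher on KI muscle replicate 97 than on 94, by 0.873, 0.388, 0.569 and 0.45. In WT muscle they were all higher on replicate 95 than on 96, by 0.303, 1.06, 0.612 and 0.429. Over all genes tested in muscle, 48.9% were higher on KI replicate 97 than on 94 and 49.4% were higher on WT replicate 95 than on 96. H2-Ea was 0.53 higher on KI replicate 97 than on 94, and its WT muscle arrays, both below the 40th percentile, differed by 0.0175. H2-DMa and Ciita were also higher on KI muscle replicate 97, by 0.128 and 0.0271, while in WT muscle the replicate 95 minus 96 difference was -0.0292 for H2-DMa and 0.219 for Ciita. In cerebellum all 7 genes were higher on KI replicate 97 than on 94, by 0.0115 to 0.421, and 2 of 7 were higher on WT replicate 95 than on 96.

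**Figure D2:**
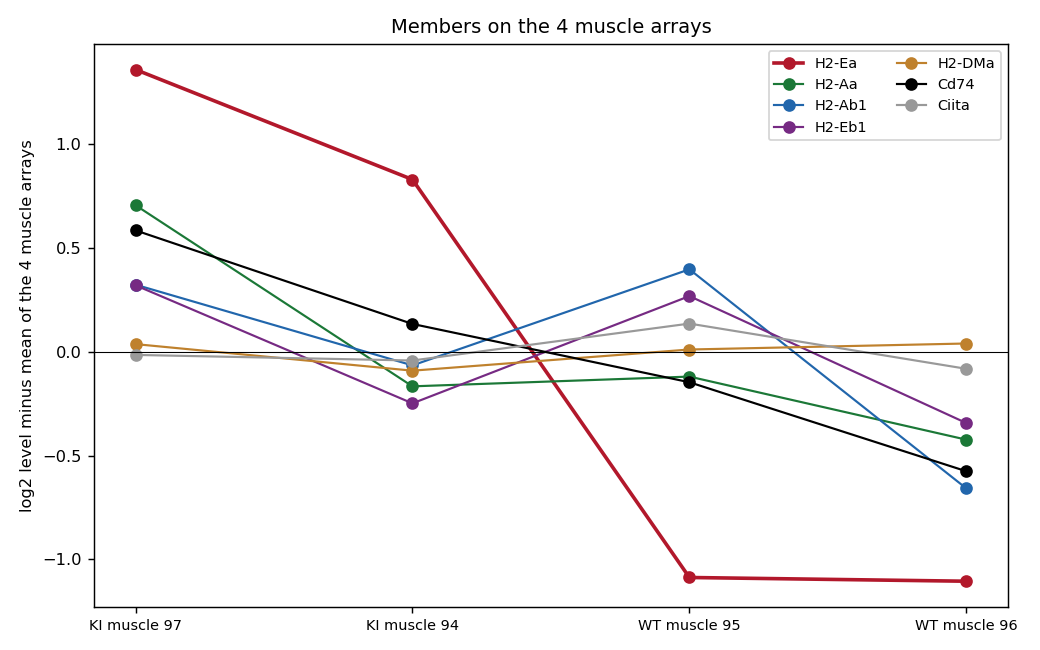
Log2 level minus the mean of the 4 muscle arrays (y axis) for each gene on KI muscle replicates 97 and 94 and WT muscle replicates 95 and 96 (x axis; a line joins the points of a gene). H2-Ea separates the genotypes, while H2-Aa, H2-Ab1, H2-Eb1 and Cd74 are higher on KI replicate 97 than on 94 and higher on WT replicate 95 than on 96.

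In cerebellum the I-A chains and Cd74 were near or below the filter in both genotypes. H2-Aa read 4.84 and 5.13 in KI cerebellum, against 4.74 and 4.60 in WT cerebellum, a difference of 0.31. H2-Ab1 read 4.72 and 4.84 in KI cerebellum, against 4.70 and 4.84 in WT cerebellum, a difference of 0.01. Cd74 read 4.76 and 5.05 in KI cerebellum, against 5.02 and 5.002 in WT cerebellum, a difference of -0.11. H2-Aa did not overlap between genotypes and the other pair did, and none of these 3 genes passed the filter in cerebellum.

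H2-Eb1 was the class II chain with signal above the filter on all cerebellum arrays. It read 5.93 and 6.10 in KI cerebellum, against 5.70 and 5.86 in WT cerebellum. The arrays did not overlap, and the difference of 0.23 ± 0.224 (SE; 95% interval -0.275 to 0.733) did not pass the test (limma adjusted p = 0.998).

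H2-DMa read 5.07 and 5.08 in KI cerebellum, against 4.86 and 5.36 in WT cerebellum, a difference of -0.03 (95% interval -0.381 to 0.318). Ciita read 5.08 and 5.26 in KI cerebellum, against 4.92 and 5.18 in WT cerebellum, a difference of 0.13 (95% interval -0.17 to 0.426). Both overlapped between genotypes. Of the 7 genes 3 were tested in cerebellum, and 0 of them were called by limma or had an unadjusted p under 0.05. Over all 13641 genes tested, 0.205% were called and 727 had an unadjusted limma p under 0.05. Arrays did not overlap, with KI higher, for H2-Eb1, which was tested, and for H2-Ea and H2-Aa, which were not. The same held for 15.3% of all genes tested.

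The genotype difference itself was compared between tissues for the 6 genes other than H2-Ea. By limma 0 were called, against 0.143% of the 14708 genes kept in either tissue. An unadjusted limma p under 0.05 was found for 1 of the 6, Cd74, and for 2033 of the 14708 genes. H2-Aa, H2-Ab1 and Cd74 entered this comparison only through muscle, since they did not pass the filter in cerebellum. For these genes the test cannot tell a smaller genotype difference in cerebellum from a signal too low to show one. The Cd74 difference was 0.72 in muscle and -0.11 in cerebellum, an excess of 0.83 ± 0.263 (SE; 95% interval 0.234 to 1.42; limma adjusted p = 0.244). For H2-Aa the excess was 0.23, for H2-Ab1 0.25, for H2-Eb1 -0.15, for H2-DMa -0.02 and for Ciita -0.18, with limma adjusted p between 0.68 and 0.974.

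The I-A chains and the invariant chain had more signal in muscle than in cerebellum, given as a description because these 3 genes passed the filter only through muscle. Cd74 averaged 7.90 in muscle and 4.96 in cerebellum over the 4 arrays of each tissue, a difference of 2.95 ± 0.132 (SE) or 7.71-fold. H2-Aa averaged 7.28 in muscle and 4.83 in cerebellum, a difference of 2.45 ± 0.175 or 5.47-fold. H2-Ab1 averaged 7.002 in muscle and 4.78 in cerebellum, a difference of 2.23 ± 0.200 or 4.68-fold. For each of them the lowest muscle array was above the highest cerebellum array, and most cerebellum arrays were below the 40th percentile.

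The other 3 genes passed the filter in both tissues. H2-Eb1 averaged 7.18 in muscle and 5.90 in cerebellum, a difference of 1.28 ± 0.158 or 2.42-fold (limma adjusted p = 5e-05). H2-DMa averaged 5.67 in muscle and 5.09 in cerebellum, 1.49-fold (limma adjusted p = 0.00101). Ciita averaged 5.53 in muscle and 5.11 in cerebellum, 1.33-fold (limma adjusted p = 0.00275). A call between tissues also needed a 2-fold difference, so of these 3 genes 1, H2-Eb1, was called, against 26% of the 14708 genes called in either direction and 11% called higher in muscle. All 3 had every muscle array above every cerebellum array, as did 31.6% of the 14708 genes. H2-Ea averaged 5.55 in muscle and 4.32 in cerebellum, but its arrays overlapped between tissues, since both WT muscle arrays lay below both KI cerebellum arrays.

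No neighbouring gene of the class II locus had a difference as large as that of H2-Ea. The neighbours were the 12 genes with a single-symbol probe set on each side in the RefSeq order, H2-Oa to H2-Eb2 and Btnl2 to Ppt2, and they include H2-DMa, H2-Ab1, H2-Aa and H2-Eb1. In muscle 20 of the 24 were tested, 0 were called by limma and 2 had an unadjusted p under 0.05. So did 2822 of all 13933 genes tested in muscle. Differences of all 24 ran between -0.276 for Egfl8 and 0.542 for H2-Aa, with a median of 0.0669 over those tested. Both flanking genes were far from 2.19: H2-Eb2 read 4.13 in KI muscle and 4.38 in WT muscle and was not tested, and Btnl2 differed by 0.07 (limma adjusted p = 0.823). With no overlap, KI was higher for 6 of the 24 neighbours and lower for 6, against 30.3% and 19.9% of all genes tested. The higher ones include H2-Ob and Btnl1 and the lower ones H2-Eb2, which were not tested, while the shares cover tested genes only.

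In cerebellum 17 neighbours were tested, 0 were called by limma and 2 had an unadjusted p under 0.05. So did 727 of all 13641 genes tested in cerebellum. Differences ran between -0.113 for H2-Ob and 0.347 for H2-Eb2, all below the 0.75 of H2-Ea, with a median of 0.137 over those tested. With no overlap, KI was higher for 11 of the 24 and lower for 3, against 15.3% and 20% of all genes tested. The higher ones include Psmb8 and H2-Aa and the lower ones H2-Ob, which were not tested, so these counts and shares cover unlike sets. The stretch includes the class I processing genes Psmb9, Tap1, Psmb8 and Tap2, and none of those tested was called.

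**Figure D3:**
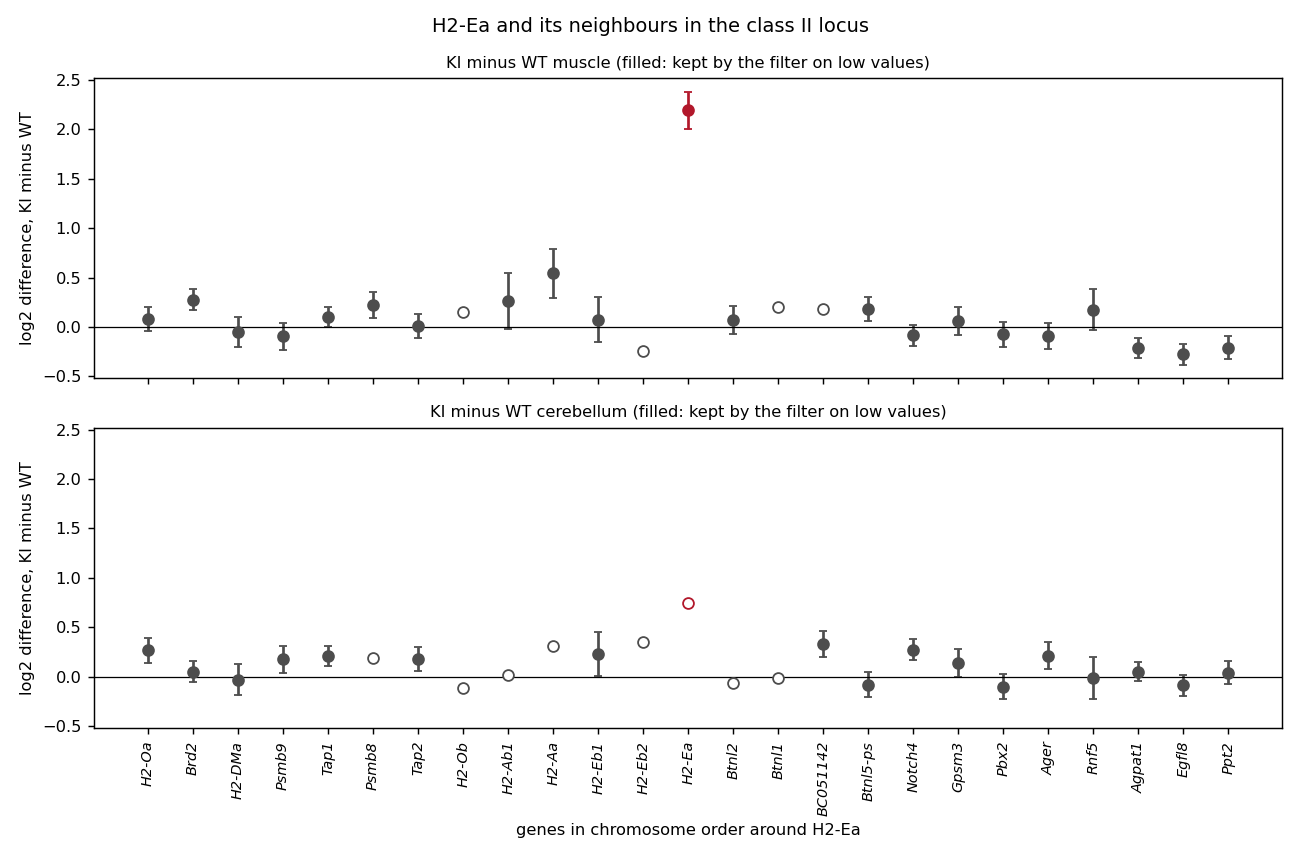
Log2 difference, KI minus WT, for H2-Ea and the 12 genes on each side of it in chromosome order, in muscle (upper panel) and cerebellum (lower panel). Filled points passed the filter on low values and carry bars of 1 SE, open points did not, and H2-Ea stands at 2.19 in muscle and 0.75 in cerebellum against neighbours of -0.276 to 0.542 and -0.113 to 0.347.

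H2-Ea, H2-Aa, H2-Ab1, H2-Eb1 and H2-DMa lie on chromosome 17, Cd74 on chromosome 18 and Ciita on chromosome 16. Tbp, the gene that carries the knock-in, is also on chromosome 17, so calls were counted along that chromosome. Leaving out H2-Ea, 21 of 676 chromosome 17 genes (3.11%) were called between KI and WT muscle, against 473 of 13218 genes (3.58%) on other chromosomes. Between Tbp and H2-Ea 5 of 283 genes (1.77%) were called. In cerebellum 2 of 641 chromosome 17 genes (0.312%) were called, against 26 of 12959 genes (0.201%) elsewhere, and 0 of the 263 between Tbp and H2-Ea. The level of Tbp was 6.87 in KI muscle and 6.76 in WT muscle (limma adjusted p = 0.634), and 7.60 in KI cerebellum and 7.78 in WT cerebellum (limma adjusted p = 0.998). The level of Tbp does not show the repeat and so checks no label.

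Genes of the class II pathway were counted from lists. Among 6 endosomal genes that process antigen and invariant chain, 1 was called higher in KI muscle and all 6 differences were positive. Their median was 0.227 against 0.026 over all genes. Of all genes tested in muscle, 2.66% were called higher and 7665 of 13933 differences were positive. Lgmn, the asparagine endopeptidase that makes early cuts in the invariant chain, read 8.32 and 8.34 in KI muscle, against 7.43 and 7.63 in WT muscle, a difference of 0.80 ± 0.131 (SE; limma adjusted p = 0.0161). Its call was lost without KI muscle replicate 94 (limma adjusted p = 0.0686), without KI muscle replicate 97 (0.08) or without WT muscle replicate 95 (0.0995), and over all probe sets (0.16). Ctsl, a cysteine protease, differed by 0.33 (limma adjusted p = 0.171) and Ifi30, a thiol reductase of antigen processing, by 0.29 (0.345).

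In cerebellum 0 of these 6 were called by limma, and all 6 differences were positive with a median of 0.0689. Differences of all genes tested there were positive for 6478 of 13641. Ctss, the protease known to finish invariant chain digestion in macrophages and dendritic cells, read 6.57 and 6.24 in KI cerebellum, against 5.62 and 5.65 in WT cerebellum. Its arrays did not overlap, and the difference of 0.77 ± 0.17 (SE) did not pass the test (limma adjusted p = 0.263). In muscle Ctss differed by 0.04.

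Factors that bind class II promoters gave 1 call lower and 0 higher among 7 genes in muscle. Of all genes tested in muscle, 0.89% were called lower and 2.66% higher. Nfyb, a subunit of NF-Y, which binds the GATTGG core, read 7.51 and 7.67 in KI muscle, against 8.16 and 8.11 in WT muscle, a difference of -0.55 ± 0.109 (SE; limma adjusted p = 0.0305). That call was lost when any 1 muscle array was left out (limma adjusted p 0.08 to 0.15) and when either WT cerebellum array was (0.0641 and 0.0645). It was also lost with the muscle arrays alone (0.0915), with no filter (0.0632) and over all probe sets (0.184), and was made under 5 of 14 alternatives. Rfx5, which binds the X box, differed by 0.34 (limma adjusted p = 0.15), and Nfyc, another subunit of NF-Y, by 0.21 (0.305). In cerebellum 0 of the 7 were called by limma, and Nfya, the subunit that contacts the box, differed by -0.30 (limma adjusted p = 0.914).

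Genes that lead from interferon gamma to Ciita gave 0 calls by limma among 6 tested in muscle and among 6 tested in cerebellum, with medians of 0.0245 and 0.00318. Jak1, a kinase of the interferon receptors, came nearest in muscle, at 9.65 and 9.65 in KI muscle, against 9.16 and 9.30 in WT muscle (limma adjusted p = 0.0732), and it was called with trended and robust variances (0.0329). Between tissues the receptor chains Ifngr1 and Ifngr2 were called higher in muscle, by 1.26 and 1.67, as were 11% of all genes tested. H2-Oa, the only tested paralog among H2-Oa, H2-Ob and H2-Eb2, differed by 0.08 in muscle (limma adjusted p = 0.774) and 0.27 in cerebellum (limma adjusted p = 0.949). Of 3 turnover and costimulation genes tested in each tissue, 0 were called by limma.

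Type I interferon response genes, a list chosen with earlier results of these data known, were called in both tissues. Of 8 type I interferon response genes tested in muscle 6 were called higher in KI, with a median of 1.18. Of 8 tested in cerebellum 5 were called higher, with a median of 1.51. Ifit1, which was called there, and Rsad2, which was not, lay below the filter percentile on both WT cerebellum arrays. Ifit1 and Rsad2 thus passed the filter in cerebellum only through the KI arrays, so this count and median are not free of that selection. The shares over all genes tested were 2.66% called higher in muscle and 0.205% called in either direction in cerebellum. The list mean was 6.48 and 6.36 in KI muscle, against 5.50 and 5.50 in WT muscle, and 6.71 and 6.42 in KI cerebellum, against 5.22 and 5.30 in WT cerebellum. KI replicate 94 had the higher list mean in both tissues, with 3 of its 9 genes higher on KI muscle replicate 97. Usp18, a deubiquitinase-like brake on interferon receptor signalling, differed by 1.11 in muscle (limma adjusted p = 0.00628) and 2.18 in cerebellum (0.000639). The count of 6 in muscle became 1 to 3 when any 1 muscle array was left out, 4 with the muscle arrays alone and 0 over all probe sets. The count of 5 in cerebellum became 2 when any 1 cerebellum array was left out and 0 over all probe sets.

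Of 12 macrophage and microglia markers 11 were tested in muscle. Of these, 10 were higher in KI, with a median of 0.281, but 0 were called by limma. Of all genes tested in muscle, 7665 of 13933 were higher in KI. On each KI muscle array 11 of the 12 markers reached the 40th percentile, against 10 on each WT muscle array. C1qb, a complement chain made by macrophages, had the smallest unadjusted p, with a difference of 0.57 (limma adjusted p = 0.194). The list mean was 6.01 and 5.85 in KI muscle, against 5.69 and 5.65 in WT muscle, and 5.77 and 5.81 in KI cerebellum, against 5.55 and 5.58 in WT cerebellum. In cerebellum 9 of 9 tested markers were higher in KI, against 6478 of all 13641 genes tested, and 0 were called by limma. The list mean was higher on KI muscle replicate 94 than on 97, but 5 of the 12 markers were higher on 97, and in WT muscle 7 of the 12 were higher on replicate 95.

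Markers of dendritic, B and T cells are given by their list means. Dendritic cell markers averaged 4.95 and 4.92 in KI muscle, against 5.15 and 5.03 in WT muscle, with a median difference of -0.175 over 5 tested genes and 0 calls by limma. Of 8 dendritic markers 3 and 4 reached the 40th percentile on KI muscle replicates 94 and 97, against 6 and 5 on WT muscle replicates 95 and 96. Zbtb46, Batf3 and Ccr7 did so on all 4 muscle arrays, and Itgax, Flt3 and Cd209a on some of them. Clec9a and Xcr1 were below it on all 4 muscle arrays. B cell markers averaged 4.66 and 4.58 in KI muscle, against 4.54 and 4.61 in WT muscle, and of 7 genes 2 or 3 were above the 40th percentile on a muscle array. Cd79b and Pax5 were above it on all 4 muscle arrays, while Cd79a and Ms4a1 were below it. T cell markers averaged 4.81 and 4.77 in KI muscle, against 4.99 and 4.73 in WT muscle, with 2 of 6 genes above the 40th percentile on each array. Of 8 skeletal muscle markers, all were lower in KI muscle, with a median of -0.51. Of these, 1, the fast troponin gene Tnni2, was called (limma adjusted p = 0.0409), against 0.89% of all genes called lower. The mean of the 8 markers was 11.15 and 11.35 in KI muscle, against 11.73 and 11.79 in WT muscle. The part of muscle fibre genes, interferon response genes, macrophage markers and other cell types in the class II values was not tested.

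**Figure D4:**
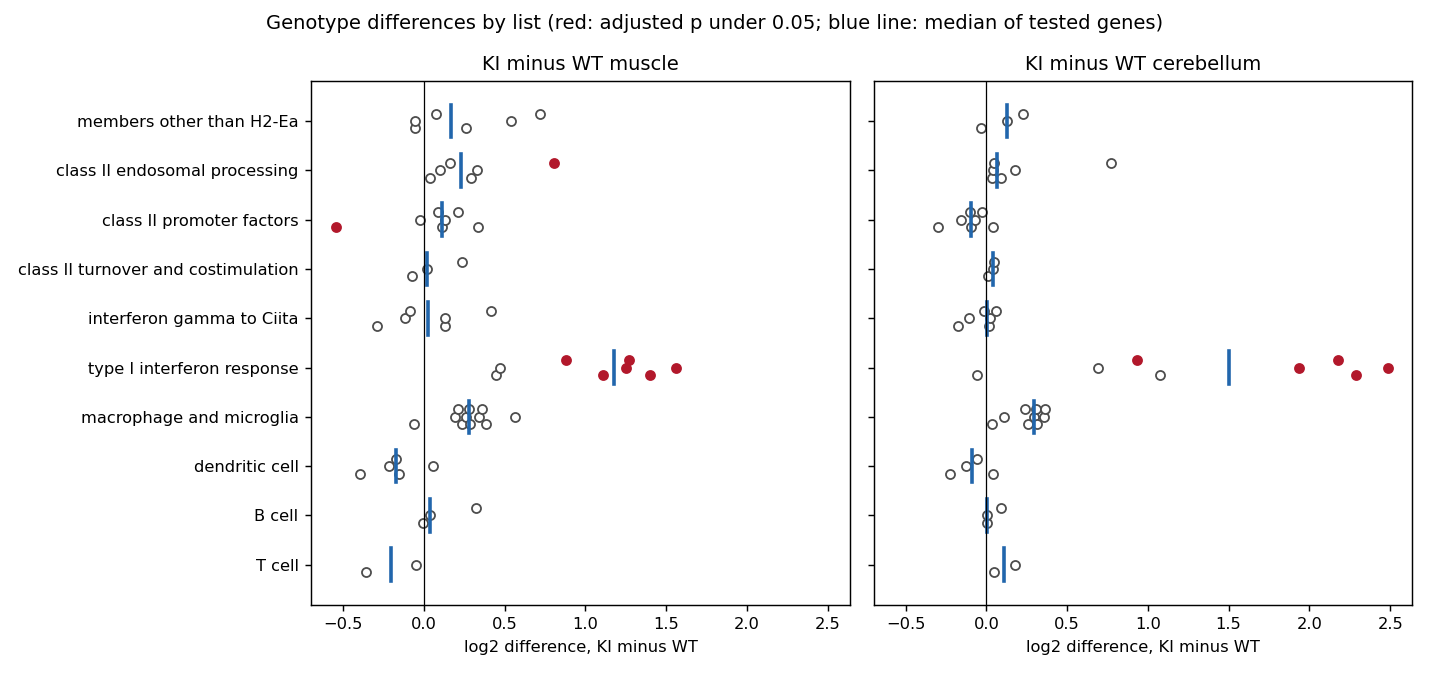
Log2 difference, KI minus WT, of each tested gene (points) by list, in muscle (left) and cerebellum (right), with red points at a limma adjusted p under 0.05 and blue lines at the median. The 6 class II genes other than H2-Ea lie between -0.06 for Ciita and 0.72 for Cd74 in muscle. Only H2-Eb1, H2-DMa and Ciita of them were tested and are shown in cerebellum. Type I interferon response genes have medians of 1.18 and 1.51. Of these genes, Ifit1 and Rsad2 passed the filter in cerebellum only through the KI arrays.

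By Pearson correlation of log2 levels over the 8 arrays, a description in which arrays of a tissue share most of the pattern, the 5 genes most like H2-Ea out of 14707 were Cspg4b (r = 0.982), Wbp1 (0.978), Opn1mw (0.976), Cyb5r3 (0.975) and Tet2 (0.973). All are on chromosomes other than 17. Opn1mw, an opsin gene, for example read 5.61 and 6.26 in KI muscle, against 4.54 and 4.18 in WT muscle. The genes most like H2-Aa were Wwtr1, Klhl40, Cnn2, Rps13 and S100a11 (0.992 to 0.997), those most like H2-Ab1 Eif2b2, Tnfrsf10b, Ddx49, Abcb8 and Myo1c (0.991 to 0.995), and those most like Cd74 Flii, Slc9a2, Vaultrc5, Smim11 and Sbk2 (0.996 to 0.997). No class II gene was among the 5 genes most like any of these 4, and muscle stood above cerebellum for all of H2-Aa, H2-Ab1 and Cd74.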

How the data were processed

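The deposited values are on a log2 scale, 1 for every probe set of each array. GCOS and RMA are the tools that the submitters' processing notes name, without versions. As a method, RMA corrects background, quantile normalises arrays and summarises probes, and it is known to narrow differences of dim probe sets. No detection calls were used, and array number limits the precision. Of 35556 probe sets, 21789 had 1 gene symbol, 1621 several and 12146 none in the platform annotation. The brightest single-symbol probe set over the 8 arrays stood for each of 19938 genes. H2-DMb1 and H2-DMb2 share a probe set and were not measured separately.

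In limma 3.58.1 (R 4.3.3), 4 group means were fitted with lmFit and eBayes to 14708 genes kept in either tissue, and p-values were adjusted by Benjamini-Hochberg over 13933 genes in muscle, 13641 in cerebellum or all 14708. Calls between tissues also needed a 2-fold difference. The fit was tested on simulated data. The members and gene lists were chosen with earlier results of these data known. Most named genes are the members, the flanking and extreme neighbours of H2-Ea, Tbp, and 5 genes most like each of 4 members. At most 3 genes per list were named for the smallest unadjusted p in a comparison. Dendritic and B cell markers were instead named by whether they reached the filter percentile on the muscle arrays. Some tissue markers and interferon response genes were named for how they passed the filter. Other genes of the class II locus were named as paralogs, class I processing genes or untested neighbours. Ctss was named by its p in cerebellum, and its muscle difference is given beside it. Replicate numbers recur across tissues, and the main fit did not pair the arrays. Deviations of same-numbered arrays correlated at 0.0545 for KI and -0.0993 for WT. With 2 arrays per group this is a single value per genotype, which cannot show whether same-numbered arrays came from the same mouse. Alternatives were the filter, the probe set choice, the arrays in the fit, a second quantile normalization, the variance moderation, leaving out each array and a replicate block.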

Additional observations from a re-analysis of the deposited data

How the results depend on the processing

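Of the 338 values of the 7 genes under 14 alternatives per comparison, 322 kept their direction and side of the threshold, 15 changed sign and 1 became a call. That call was Cd74 between KI and WT muscle with trended and robust variances, so 1 member was called there in place of 0 (adjusted p = 0.0471; range 0.0471 to 0.277). H2-Eb1 was called between tissues under each of the 14 alternatives, and 0 members were called in cerebellum or between the genotype differences under any. After a second quantile normalization the H2-Eb1 muscle difference was -0.008 and the H2-DMa muscle effect minus cerebellum effect was 0.0151. Leaving out each array gave sign changes with these ranges. H2-Ab1 ran between -0.269 and 0.787 in muscle, H2-Eb1 between -0.232 and 0.38, H2-DMa between -0.116 and 0.0121 and Ciita between -0.165 and 0.0536. In cerebellum H2-DMa ran between -0.283 and 0.22 and Ciita between -0.00145 and 0.257. The muscle effect minus cerebellum effect ran between -0.207 and 0.666 for H2-Aa, -0.28 and 0.776 for H2-Ab1, -0.461 and 0.151 for H2-Eb1, and -0.272 and 0.231 for H2-DMa. The cerebellum difference of Irf1, a factor between interferon gamma and Ciita, ran between -0.085 and 0.205. Cd74 stayed between 0.496 and 0.946 in muscle. H2-Ea gave no value when a KI muscle array was left out, since it then failed the filter. Its range of 2.18 to 2.20 comes only from leaving out other arrays and cannot show how far it depends on the KI muscle arrays.

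Counts over all genes moved more. The 495 genes called in muscle became 155 with the muscle arrays alone, 246 with no filter and 0 over all probe sets (4374 at an unadjusted p under 0.05). Leaving out 1 array gave 108 to 393, with 114 and 123 when KI muscle array 97 or 94 was left out, 108 and 174 when WT muscle array 95 or 96 was, and 264 when either WT cerebellum array was. The 28 called in cerebellum became 18 with no filter and 0 over all probe sets (1281 at an unadjusted p under 0.05), and leaving out 1 array gave 3 to 29, with 3 to 6 when it was a cerebellum array. The 21 called between the genotype differences became 63 with trended and robust variances, 3 with no filter and 0 over all probe sets (2968 at an unadjusted p under 0.05), and leaving out 1 array gave 0 to 16. With the replicate number as a block there were 14, of which 8 were among the 21, with 0 members, and 3823 between tissues. In that check 2 of 8 arrays, both from KI muscle, correlated best with their own number in the other tissue. The cause was not tested.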
